A study of Mus musculus with 4 samples.

Results

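Open chromatin around Sox9 was described from every ATAC-seq peak that lay in the gene or within 1.5 Mb of it on chromosome 11. This window held 785 of the 455071 peaks called in 4 libraries of mouse chondrocytes, and overlapping peaks (at least 1 bp) merged into 311 of 172311 sites. ATAC-seq uses the Tn5 transposase, which cuts and tags DNA where chromatin is open, so that a peak marks an accessible stretch. The cells were chondrocytes of C57BL/6 mice, taken from cartilage of the knee at 0 to 4 days after birth. The labels named no transgene or drug. The P0 group (passage 0, 2 libraries) was collected after less than 24 h in culture. The P8 group (passage 8, 2 libraries) had been replated 8 times, from 24000 to 48000 cells per cm2 at each passage, in the same medium with fetal bovine serum. The study used this serial culture as a model of dedifferentiation, the loss of the cartilage phenotype on plastic. The labels did not say whether the libraries of a group came from separate animals or cultures, so the spread between them may be technical. Each peak was deposited with its passage. The peak names told the 2 libraries of a passage apart but did not give the replicate number of the labels. The libraries are therefore called A and B of each passage.

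SOX9 is the transcription factor that commits mesenchymal cells to the chondrocyte lineage. With its partners SOX5 and SOX6 it drives the genes of the cartilage matrix, such as Col2a1 and Acan. Its gene lies in a stretch that is almost empty of protein-coding genes and is known for enhancers that act over very long distances. In humans, changes far from the coding sequence of SOX9 underlie skeletal and craniofacial disorders. In bulk chromatin, fewer cells with an open site and less opening per cell cannot be told apart.

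In the GRCm38 build Sox9 spans chr11:112782210-112787757, which is 5548 bp. Lower coordinates are called upstream here and higher coordinates downstream, because Sox9 is read in the direction of rising coordinates. Upstream, the RefSeq annotation lists 1 gene model called protein-coding (Gm11677) and 5 long non-coding RNA (lncRNA) genes that start within the window. Between Sox9 and the next protein-coding gene downstream, the zinc transporter gene Slc39a11, lay 457 kb with lncRNA genes only. From Slc39a11 on, the window held 8 protein-coding genes that started there, among them the somatostatin receptor gene Sstr2, the Golgi complex gene Cog1, the CDC42 effector gene Cdc42ep4 and the adhesion gene Sdk2.

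Depth differed between the groups, and so did the number of peaks. The lowest background that the peak caller used was 194 and 162 tags per 10 kb in P0 libraries A and B, against 140 and 134 in P8 libraries A and B. Both P0 libraries thus lay above both P8 libraries. A deeper library yields more and longer peaks at the same accessibility, so counts are also given at matched depth. These cover peaks whose p-value still passes once tags and background are scaled to the shallowest of the 4 libraries. The scaling adds no counting noise, so peaks that a shallower library would miss by chance are kept. It kept 139408 of 145703 peaks in P0 library A and 119244 of 119974 in P0 library B, and so matches depth in part only. Genes that define chondrocytes had peaks up to 1 kb from an end in all 4 libraries for 9 of 11 markers, beside 58.2% of 21883 protein-coding genes. The other 2, Matn1 and Snorc, had them in each P0 library and in none of P8, as did 3.98% of protein-coding genes. No library had such a peak at 30.9% of protein-coding genes. Among these were Ptprc, Csf1r and Adgre1 of blood and macrophages, Pecam1 and Cdh5 of the endothelium and Krt5 of the epithelium. Other markers of these and other cell types did have peaks. Spi1, Tek, Kdr and Myod1 had them in all 4 libraries, and Cd68, Des, Sox10, Epcam and Cdh1 had them in both libraries of P0 and in none of P8. Myog had a peak in P0 library A alone. Whether other cells contributed to the peaks around Sox9 was not tested.

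**Figure D1:**
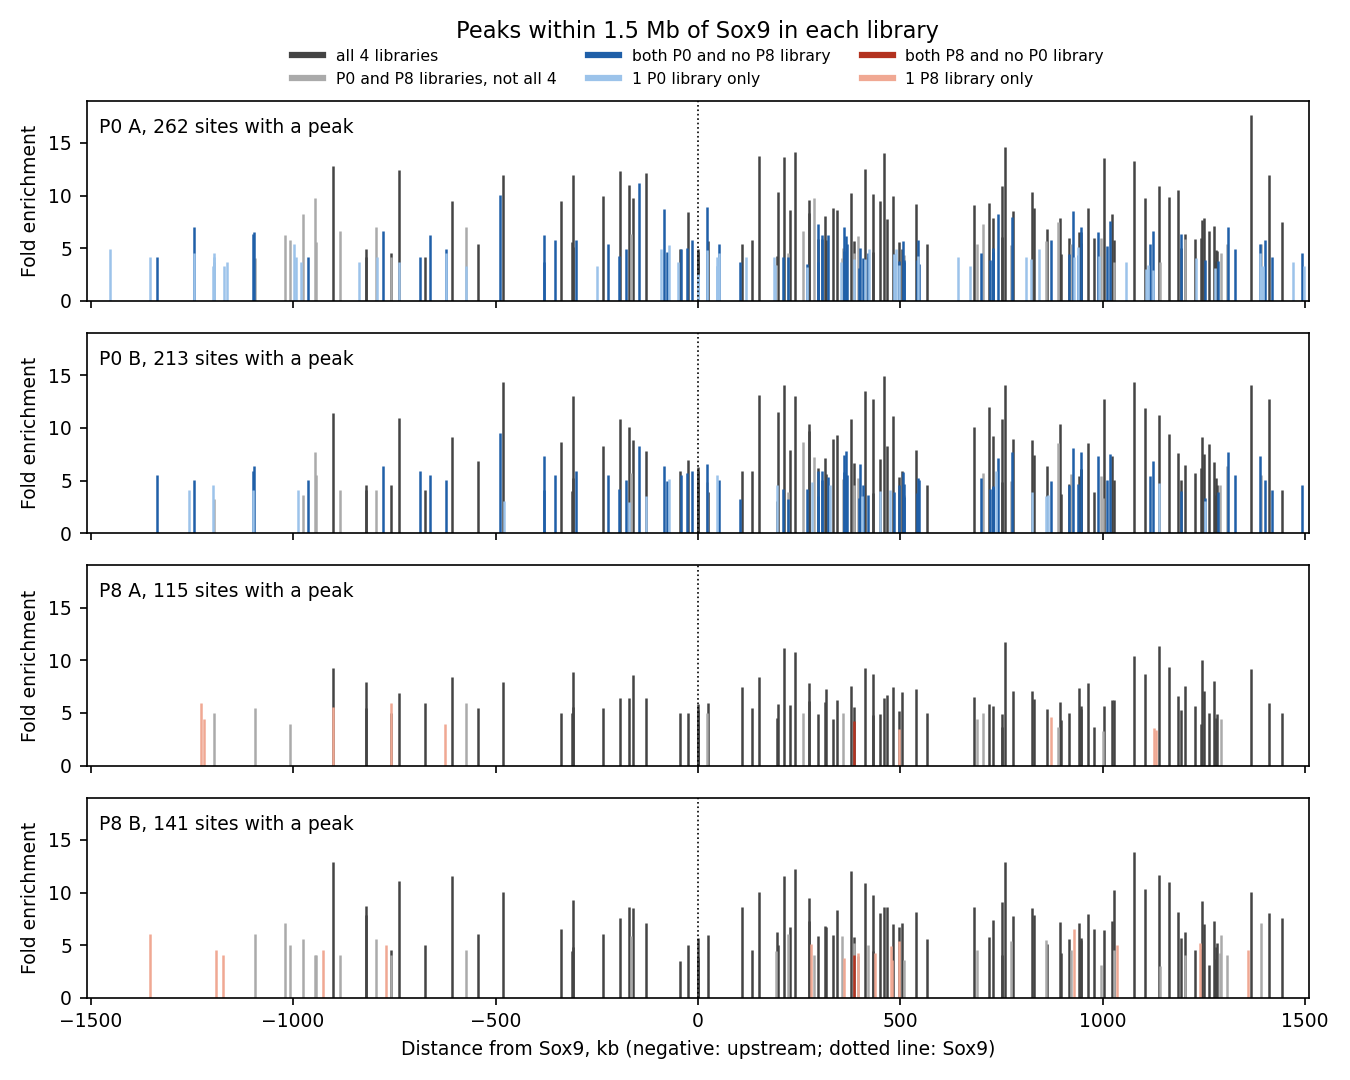
Fold enrichment over the local background (vertical axis, no unit) of each site with a peak, against its distance from Sox9 in kb (horizontal axis, upstream negative), with 1 panel per library and colour by the libraries that hold a peak at the site. P0 libraries A and B had peaks at 262 and 213 sites, and P8 libraries A and B at 115 and 141 sites.

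The window held more peaks at P0 than at P8. MACS2 called 269 and 226 peaks there in P0 libraries A and B, against 129 and 161 in those of P8. The lower P0 library held more than the higher P8 library. P0 averaged 248 ± 30.4 and P8 averaged 145.0 ± 22.6 peaks in the window (SD, n = 2 each), a ratio of 1.71, while the ratio over all peaks of the libraries was 1.40. With 2 libraries against 2, the exact two-sided permutation test gave p = 0.333, which is the smallest value it can give, so no comparison of this kind could pass 0.05. At matched depth the counts were 256, 223, 129 and 161 and the ratio was 1.65.

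Set against the size of each library, the window still took a larger share at P0. Per 10000 peaks of the library it held 18.5 and 18.8 at P0 and 14.4 and 16.1 at P8. The means were 18.7 ± 0.265 and 15.3 ± 1.23 (SD, n = 2 each), a ratio of 1.22 (exact two-sided permutation test, p = 0.333). The groups did not overlap, and without P8 library A the ratio was 1.16.

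The peaks also covered more of the window at P0. The covered length was 79031 and 63060 bp in the P0 libraries and 30247 and 38507 bp in the P8 libraries. This was 2.63% and 2.10% of the window at P0 and 1.01% and 1.28% at P8. The ratio of the means was 2.07 (exact two-sided permutation test, p = 0.333), larger than the ratio of peak counts. The same ratio over the whole genome is not given here. Over all peaks of the libraries the median length was 216 and 210 bp at P0 against 178 and 189 bp at P8. The median peak length in the window was 227 and 202 bp in the P0 libraries against 195 and 204 bp in the P8 libraries, so here the groups overlapped (p = 0.667, exact two-sided permutation test). The median fold enrichment of the window peaks lay between 5.38 and 5.67 in all 4 libraries. Fold enrichment is the pileup of tags at the summit of a peak, plus 1, over the local background, plus 1.

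Sites of the window were then sorted by the libraries that held a peak. A peak was present in all 4 libraries at 93 sites, or 29.9% (95% Wilson interval 25.1 to 35.2%, which covers counting error only), beside 32.4% of all sites of the genome. Sites with a P0 peak in each library and none at P8, called P0-only here, numbered 75, or 24.1% (19.7 to 29.2%), beside 17.0% of all sites. The opposite pattern, called P8-only, was found at 1 site, or 0.322% (0.0568 to 1.80%), beside 1.84% of all sites. A further 79 sites (25.4%, beside 23.2% of all sites) had a peak in 1 P0 library alone. In 1 P8 library alone there were 25 (8.04%, beside 9.89%), and 38 (12.2%, beside 15.6%) had peaks in some libraries of both passages. At matched depth 298 sites remained, of which 73 or 24.5% were P0-only, beside 16.9% of all sites. Of the 75 sites, 73 kept both their P0 peaks.

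The single-library sites were weak and came mostly from the deepest library. P0 library A alone held 58 of them, with a median fold enrichment of 4.00, and P0 library B alone held 21, with a median of 4.12. In the P8 libraries the numbers were 9 and 16, with medians of 4.45 and 4.71. No site of this kind exceeded 6.57.

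**Figure D2:**
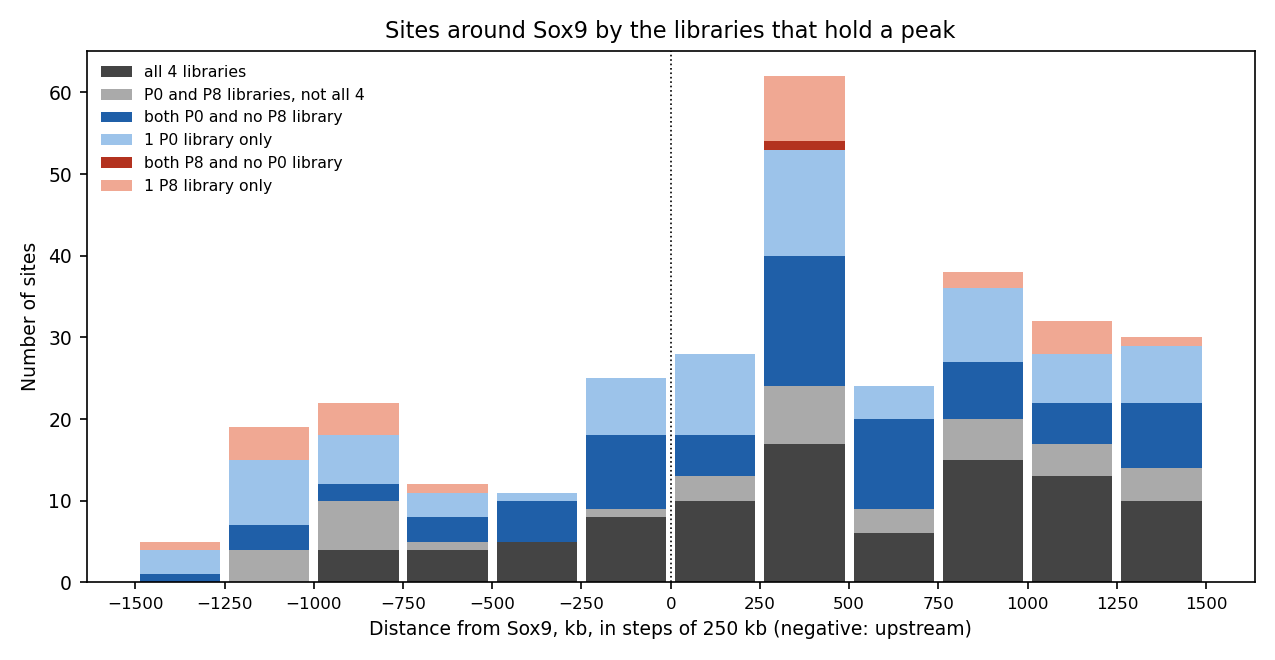
Number of sites (vertical axis) in steps of 250 kb of distance from Sox9 (horizontal axis, upstream negative), stacked by the libraries that hold a peak. The step from 250 to 500 kb downstream held the most sites, 62, and the outermost upstream step the fewest, 5; the 3 sites that overlap Sox9 are not drawn.

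Sites were unevenly spread along the chromosome. The window held 104 sites per Mb, beside 85.5 on chromosome 11 and 66.3 over chromosomes 1 to 19 and X. The upstream side, outside 5 kb of the gene, held 93 sites or 62.2 per Mb. The gene-poor stretch downstream as far as Slc39a11 held 75 sites or 166 per Mb, and the stretch from Slc39a11 on held 138 sites or 132 per Mb. In peaks per Mb, the lncRNA-only stretch was denser than the gene-bearing stretch after it in 3 libraries (144 against 116 in P0 library A, 128 against 101 in P0 library B and 90.7 against 74.8 in P8 library B). In P8 library A the stretches held 61.9 and 62.3 peaks per Mb. Of all window sites, 115 lay inside a protein-coding gene, 59 inside lncRNA genes only and 137 outside genes, and 44 lay within 1 kb of a gene end.

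The excess of P0 peaks was present on both sides of Sox9. Upstream, outside 5 kb of the gene, the libraries held 78, 58, 32 and 38 peaks (P0 A, P0 B, P8 A and P8 B), a ratio of P0 to P8 of 1.94. Downstream as far as Slc39a11 they held 65, 58, 28 and 41, a ratio of 1.78, and from Slc39a11 on 121, 105, 65 and 78, a ratio of 1.58. In each of these stretches the lower P0 count exceeded the higher P8 count. Whether the stretches differed from one another in this ratio was not tested.

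Within 500 kb upstream the libraries held 33, 34, 15 and 16 peaks at 36 sites. Of these sites 14, or 38.9%, were P0-only, beside 24.1% of the whole window, and 13 had peaks in all 4. None of the 36 had a peak at P8 alone. Between 750 and 1500 kb upstream, 6 of 46 sites were P0-only, and 4 had peaks in all 4 libraries. In that far stretch the counts were 35, 20, 11 and 18, so P0 library B stood close to P8 library B. By steps of 250 kb, the P0-only share was highest from 500 to 750 kb downstream, at 11 of 24 sites or 45.8%, and from 250 to 500 kb upstream, at 5 of 11 sites or 45.5%. It was lowest from 750 to 1000 kb upstream, at 2 of 22 sites or 9.09%. The share over all sites of the genome was 17.0%. Each step holds few sites, and differences between steps were not tested. The farthest upstream site with a peak in all 4 libraries lay 902 kb from the gene, and downstream such sites reached 1442 kb.

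At P0 the highest local background of the window lay at Sox9 itself. The local background is the mean tag density that the caller found around a peak, and it rises where a whole neighbourhood is open. At the site over the start of the gene, which had a peak in all 4 libraries, it was 9.69 and 7.11 tags in the P0 libraries and 4.31 and 4.80 tags in the P8 libraries. In units of the lowest background of each library these were 6.85 and 6.00 at P0, and 4.22 and 4.90 at P8. At window peaks farther than 5 kb from the gene the median was 1.19 to 1.36 in all 4 libraries. The means at the start site were 6.42 ± 0.599 at P0 and 4.56 ± 0.479 at P8 (SD, n = 2 each), a ratio of 1.41 (exact two-sided permutation test, p = 0.333). A value of 12.7 tags in P0 library A, inside the gene, belonged to a peak that no other library had. The farther window peaks reached 6.36 and 5.73 at P0, below the start site, and 4.88 and 5.59 at P8, above it.

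Within 5 kb of Sox9 there were 5 sites, of which 3 had peaks in all 4 libraries and 2, inside the gene, in P0 library A alone, with fold enrichments of 2.34 and 2.51. The site over the start of the gene, chr11:112781909-112782432, had a fold enrichment of 4.96 and 5.92 at P0 and 5.83 and 5.69 at P8. The passages overlapped on this scale (limma, log2 difference of P8 minus P0 0.36, SE 0.204, adjusted p = 0.273). The tags at its summit numbered 52 and 47 at P0 and 30 and 32 at P8, and its local background was 9.69 and 7.11 against 4.31 and 4.80. Summit and surroundings were thus both higher at P0 in tags, and their ratio was not. In units of the library background the summit stood at 36.7 and 39.7 at P0 and 29.3 and 32.7 at P8, and the difference on that scale was below the threshold (limma, log2 difference -0.30, SE 0.18, adjusted p = 0.196).

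The second site, 0.4 kb upstream at chr11:112781434-112781858, had 38 and 37 tags at P0 and 20 in each P8 library. Its fold enrichment was 3.70 and 4.80 at P0 against 3.97 and 3.66 at P8 (limma, log2 difference 0.13, SE 0.193, adjusted p = 0.719). In units of the library background it stood at 26.8 and 31.2 against 19.6 and 20.4, and on that scale, added after the data were seen, it was lower at P8 (limma, log2 difference -0.53, SE 0.211, adjusted p = 0.0453).

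The third site lay just past the 3′ end of Sox9, at chr11:112787834-112788711. The top peak of P0 libraries A and B measured 842 and 867 bp here, against 373 and 386 bp for P8 libraries A and B. By this length both P0 libraries exceeded both P8 libraries. Any further peak of a library at this site is left out, and the lengths were not matched for depth. The site had 42 and 46 tags at P0 and 20 and 15 at P8, a ratio of 2.51. Its fold enrichment was 4.61 and 6.31 at P0 against 5.24 and 3.85 at P8, a difference below the threshold (limma, log2 difference 0.0066, SE 0.23, adjusted p = 0.99). The same fit on centred summit pileups called it lower at P8, by a log2 difference of -0.71 (SE 0.184, limma, adjusted p = 0.00502). The measure chosen therefore set the call at this site.

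**Figure D3:**
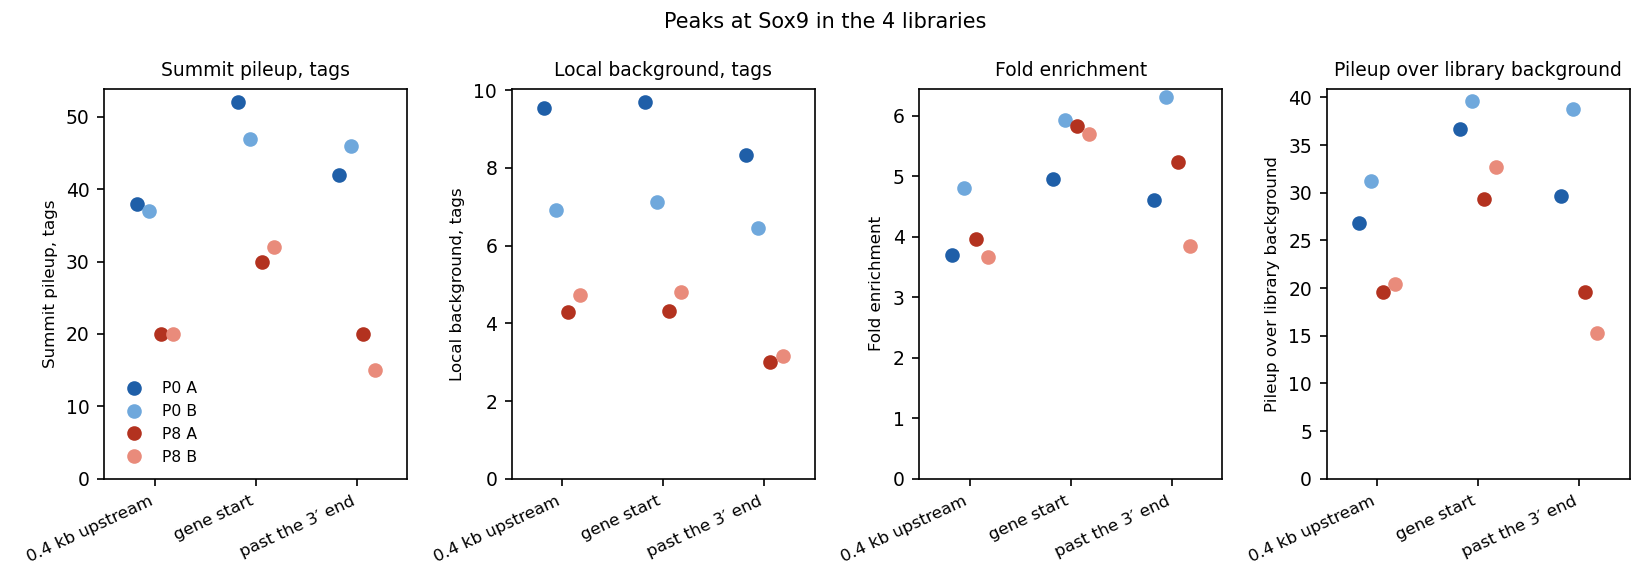
Summit pileup in tags, local background in tags, fold enrichment and pileup over the lowest background of the library (vertical axes, from 0) for the 3 sites within 5 kb of Sox9 with a peak in all 4 libraries, with 1 point per library. Pileup and local background were higher in both P0 libraries at each site, while the fold enrichments of the passages overlapped at each site.

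The 93 sites with a peak in all 4 libraries gave a value in each library. Their median fold enrichment was 7.90 and 7.54 at P0 against 6.01 and 7.07 at P8. The same medians over the 55890 such sites of the genome were 8.28, 8.09, 6.43 and 7.15. At 45 window sites both P0 libraries lay above both P8 libraries, beside 49.9% of such sites in the genome. At 15 both P8 libraries lay above both P0 libraries, beside 11.6%, and at 33 the passages overlapped. The P0 peaks were longer: the median of the bases under peaks per site was 435 and 374 bp for P0 against 248 and 304 bp for P8, with genome values of 413, 359, 263 and 303 bp. Both P0 libraries exceeded both P8 libraries in length at 53 of the 93 sites, beside 58.4% of such sites in the genome.

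Single sites were tested with limma over all 55890 sites, after each library was centred on its median. In the window 4 sites were lower and 7 were higher at P8 (limma, adjusted p under 0.05), beside 3.74% and 6.20% of all sites. The median log2 difference was 0.070 over the window sites and 0.068 over all sites. Without centring, 11 sites were lower and 1 was higher, beside 11.8% and 1.08% of all sites, and both medians were -0.20. Centring therefore moved the median by 0.27 on the log2 scale and turned its sign. Of all calls in the genome 37.6% were lower at P8 with centring and 91.6% without. On centred summit pileup 15 window sites were lower and 9 higher, beside 8.90% and 13.8% of all sites. On pileup over the library background, not centred, 24 were lower and 4 higher, beside 21.2% and 4.79%. The calls also depended on the P0 libraries, in the window as in the genome. Without P0 library A 2 window sites were called, beside 3.12% of all sites, and without P0 library B none was, beside 0.284% (limma, 6 window sites lower and 9 higher at an unadjusted p under 0.05). Without P8 library A or B the number was 10 or 12, beside 9.70% and 13.5%.

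**Figure D4:**
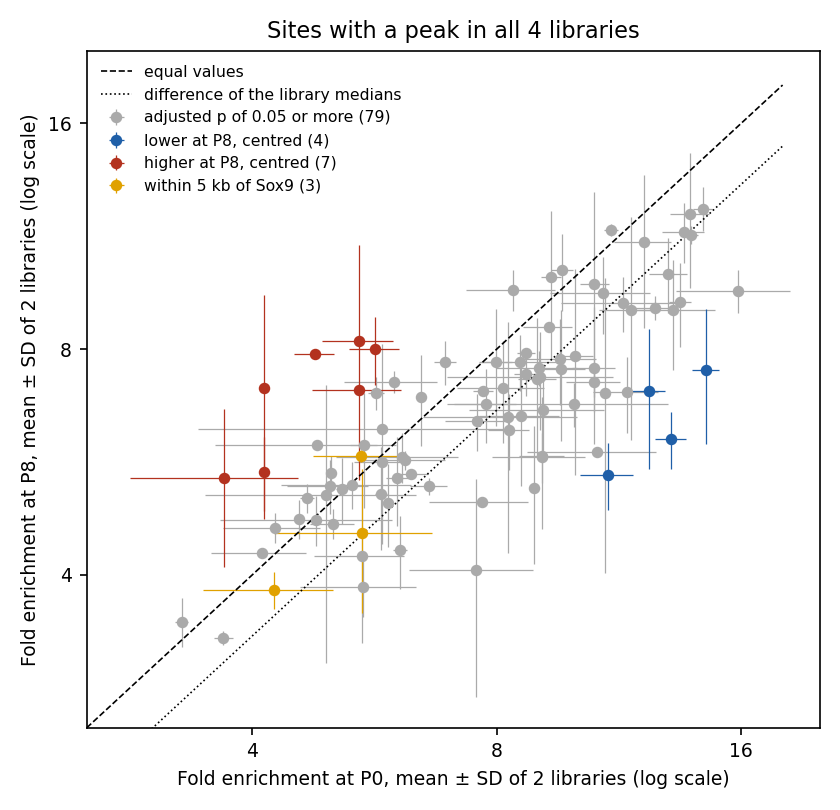
Mean fold enrichment at P8 (vertical axis) against that at P0 (horizontal axis), both on log scales, for the 93 window sites with a peak in all 4 libraries, with bars for the SD of 2 libraries. The dashed line marks equal values and the dotted line the difference of the library medians over all such sites; 4 sites called lower at P8 lie below it, 7 called higher lie above it, and the 3 sites within 5 kb of Sox9 are not called.

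The largest fall in fold enrichment among the called sites lay 1004 kb downstream, inside Sdk2, at chr11:113791380-113792293. It had a fold enrichment of 13.5 and 12.7 at P0 and 5.69 and 6.44 at P8. In tags it stood at 62 and 53 against 13 and 13, a ratio of 4.42. It was lower at P8 with centring (limma, log2 difference -0.84, SE 0.166, adjusted p = 0.00624) and without (-1.12, adjusted p = 0.00642). The groups were far apart on both scales. Only 24.8 kb further on, a site at chr11:113817057-113817397 had 5.80 and 5.03 at P0 and 6.19 and 10.2 at P8 and was called higher at P8 with centring (limma, log2 difference 0.83, SE 0.216, adjusted p = 0.0223). The higher of its P8 values came from library B, and the call was lost without centring (adjusted p = 0.146 by limma).

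The site at chr11:113246417-113246891 lay 459 kb downstream, inside Slc39a11 near its border with the lncRNA-only stretch. Its fold enrichment was 14.1 and 14.9 at P0 against 6.43 and 8.59 at P8, with no overlap (limma, log2 difference -0.69, SE 0.16, adjusted p = 0.0128). At 198 kb downstream, the site at chr11:112986107-112986617 had 10.4 and 11.5 at P0 and 5.84 and 5.04 at P8 (limma, log2 difference -0.74, SE 0.192, adjusted p = 0.0218). Both remained lower without centring, with adjusted p-values of 0.01 and 0.0106 by limma. A neighbour 2.9 kb away, at chr11:112982986-112983207, was called in the other direction, with 4.30 and 3.08 at P0 and 4.47 and 6.28 at P8 (limma, log2 difference 0.81, SE 0.206, adjusted p = 0.0193), and lost the call without centring (adjusted p = 0.12 by limma). The fourth site lower at P8, at chr11:114198315-114198906 over the lncRNA gene 1700092K14Rik, is named here because of its call. It had 11.9 and 12.7 at P0 and 5.98 and 8.08 at P8 (limma, log2 difference -0.55, SE 0.171, adjusted p = 0.0466).

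The clearest gains lay far upstream. A pair of sites 820 kb upstream of Sox9, 72 bases apart and outside genes, were both called higher at P8. The first, at chr11:111961496-111961793, had 4.14 and 4.12 at P0 and 5.44 and 8.76 at P8 (limma, log2 difference 1.01, SE 0.214, adjusted p = 0.00837). The second, at chr11:111961866-111962164, had 4.97 and 4.58 at P0 and 7.91 and 7.87 at P8 (limma, log2 difference 0.997, SE 0.197, adjusted p = 0.00628). Its summit held 11 and 9 tags at P0 and 15 and 16 at P8, so that both P8 libraries held more tags although they were the shallower ones. The second site was the 1 window site higher at P8 without centring (limma, log2 difference 0.73, SE 0.189, adjusted p = 0.0329). The P0 values of the first site correspond to 9 and 8 tags, close to the lowest that were called as peaks.

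The other named gains were smaller. At chr11:112897680-112897892, 110 kb downstream, the fold enrichment was 5.38 and 5.95 at P0 against 7.42 and 8.59 at P8 (limma, log2 difference 0.77, adjusted p = 0.019). A site 675 kb upstream, at chr11:112107036-112107593, had 4.14 and 4.12 at P0 and 5.93 and 5.05 at P8 (limma, log2 difference 0.68, adjusted p = 0.0389). A site at chr11:113292271-113292734 inside Slc39a11 had 4.94 and 5.89 at P0 and 7.01 and 7.10 at P8 (limma, log2 difference 0.66, adjusted p = 0.0453). None of these was called without centring (adjusted p = 0.106, 0.149 and 0.195 by limma).

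Among the sites shared by all 4 libraries, none of the 8 with the highest mean over the libraries was among the centred calls. That mean covers both passages, so a site that was lower at P8 ranks lower in it. At P0 alone the called site at chr11:113246417-113246891 stood at 14.1 and 14.9, and the latter was the highest value of P0 library B in the window. The site with the highest mean lay inside Slc39a11, 759 kb from Sox9 at chr11:113546331-113546961, with 14.6 and 14.1 at P0 and 11.7 and 12.9 at P8. The highest single value was found 1365 kb downstream, at chr11:114152571-114153152, with 17.6 and 14.1 at P0 and 9.13 and 10.0 at P8. Its difference was below the threshold with centring (limma, log2 difference -0.45, SE 0.147, adjusted p = 0.0592) and past it without (-0.72, adjusted p = 0.0159). A site inside Sdk2 at chr11:113865652-113866143 had 13.3 and 14.4 at P0 and 10.4 and 13.9 at P8, so that the passages overlapped.

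In the lncRNA-only stretch 4 of the 8 highest shared sites were found. The site 150 kb downstream, chr11:112938052-112938624, had 13.7 and 13.2 at P0 and 8.41 and 10.1 at P8. The site at 213 kb, chr11:113000946-113001539, had 13.7 and 14.1 at P0 and 11.1 and 11.6 at P8, and that at 239 kb, chr11:113026914-113027521, had 14.2 and 13.0 against 10.7 and 12.2. Upstream, the farthest shared site was also among the highest, at chr11:111880175-111880567, with 12.8 and 11.4 at P0 and 9.29 and 12.9 at P8. At the last of these the passages overlapped, while at the first 3 both P0 libraries lay above both P8 libraries.

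**Figure D5:**
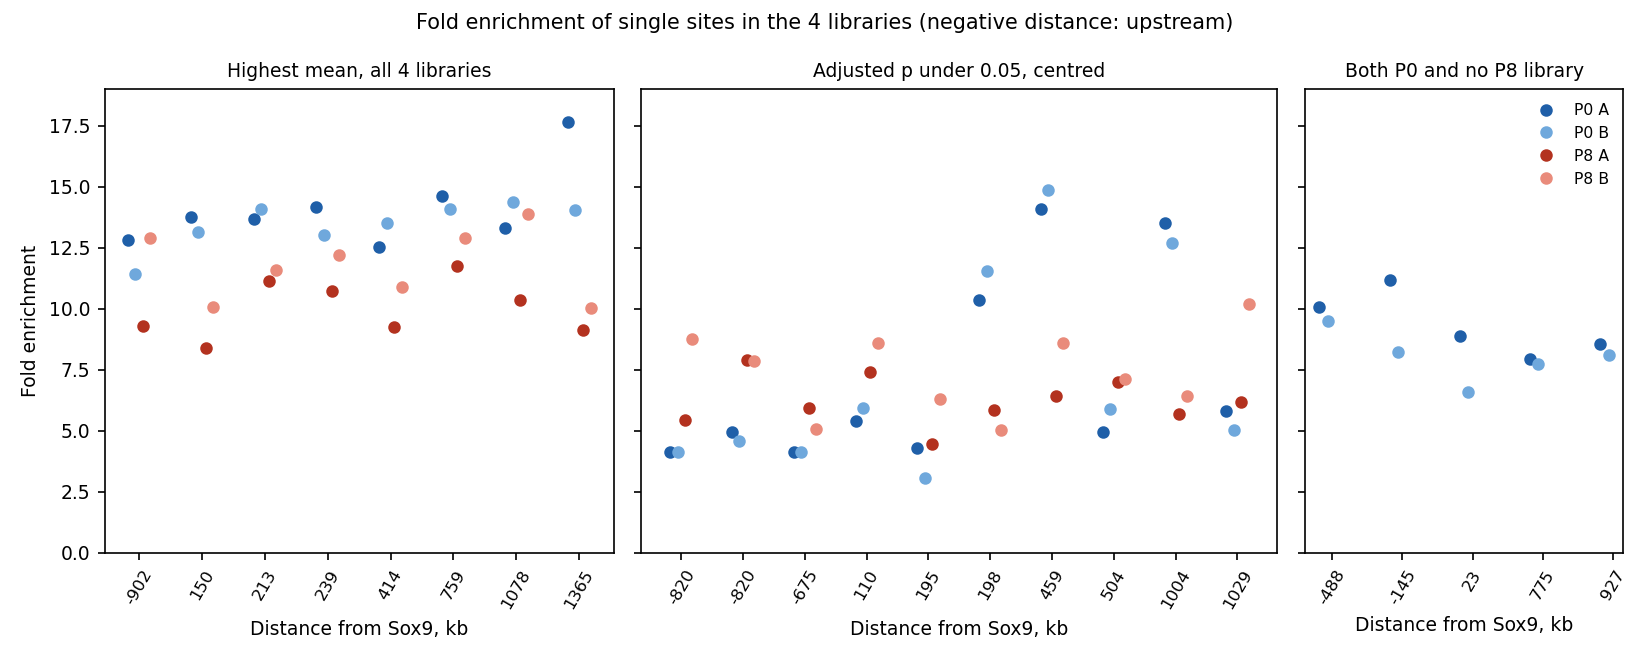
Fold enrichment (vertical axis, from 0) in each library of the 8 highest sites with a peak in all 4 libraries, of 10 sites called with centring and of the 5 highest P0-only sites, ordered by distance from Sox9 in kb (horizontal axis, upstream negative). The site at 1004 kb shows the largest fall, from 13.5 and 12.7 to 5.69 and 6.44, and the sites in the right panel have no P8 point because no P8 peak was called there.

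The 75 P0-only sites were of middling height. Their median fold enrichment was 5.22 in P0 library A and 5.25 in P0 library B, where such sites of the genome had 4.97 and 5.03. The bases under their peaks had medians of 222 and 197 bp. The highest lay upstream: at 488 kb, chr11:112293204-112293776, with 10.1 and 9.48, and at 145 kb, chr11:112636971-112637249, with 11.2 and 8.24. The nearest of the named ones to Sox9 lay 22.7 kb downstream over an end of the lncRNA gene Gm30562, at chr11:112810504-112810714, with 8.89 and 6.59. The other named sites of this kind lay at chr11:113563133-113563498 inside Slc39a11, with 7.96 and 7.74, and at chr11:113714329-113714619, with 8.56 and 8.11. An absent P8 peak means that no position passed the threshold of the caller, and tags below it are not in a peak list.

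The 1 P8-only site lay 386 kb downstream, at chr11:113173597-113173727. Its fold enrichment was 4.19 and 4.04 and its summit held 11 tags in each library. It lay within 1 kb of the start of the lncRNA gene LOC115487747, whose promoter carried a peak in all 4 libraries.

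Sites gathered into groups when those within 10 kb of each other were joined. There were 90 groups, of which 54 held at least 2 sites and together 275 of the 311 sites. The largest by far held 35 sites over 125 kb, from 297 to 422 kb downstream, across the lncRNA genes 2610035D17Rik, LOC115487747, Gm39467 and 4732490B19Rik. This group held 31 and 30 peaks in the P0 libraries and 12 and 21 in the P8 libraries. Of its 35 sites 13 were P0-only, beside 24.1% of the window and 17.0% of all sites. Peaks in all 4 libraries were found at 8, beside 29.9% and 32.4%. The group also contained the single P8-only site, a pattern found at 1.84% of all sites. The second group held 21 sites over 61.5 kb at the end of Slc39a11 (16, 14, 7 and 11 peaks) and the third 12 sites over 31.9 kb near Cdc42ep4 and Cpsf4l (11, 9, 5 and 6 peaks).

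Within the largest group a wide site had longer peaks at P0 than at P8. At chr11:113121086-113122460 the highest peak of each library was 1333 and 885 bp long at P0, and 142 and 90 bp at P8. Any further peak of a library there is left out of these lengths. Peak lengths were not matched for depth, and both P8 libraries were the shallower ones. The summit held 46 and 38 tags at P0 and 8 and 11 at P8, a ratio of 4.42, and the local background was 4.31 and 3.37 against 1.02 and 1.0. The fold enrichment was 8.86 and 8.92 at P0 against 4.45 and 6.00 at P8. It was not called on centred fold enrichment (limma, log2 difference -0.51, SE 0.196, adjusted p = 0.102), but was on centred summit pileup (-1.52, SE 0.208, limma, adjusted p = 3.81e-06). At a neighbouring site, chr11:113131881-113133120, the highest peaks were 999 and 1197 bp long in the P0 libraries against 649 and 705 bp in the P8 libraries. The widest site of the window, over the start of Cdc42ep4 at chr11:113750621-113752084, had 8.84 and 8.54 at P0 and 7.82 and 8.00 at P8.

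The promoter of 2610035D17Rik, in the same group, was among the 8 highest shared sites. Its site at chr11:113201441-113202044 had a fold enrichment of 12.5 and 13.5 at P0 and 9.27 and 10.9 at P8 (limma, log2 difference -0.10, SE 0.147, adjusted p = 0.702). In tags it held 48 and 42 against 22 and 27. The promoter of LOC115487747 had 5.65 and 6.70 at P0 and 5.56 and 5.81 at P8. These were the only promoters of the RefSeq table between the window's upstream edge and Slc39a11 with a peak in all 4 libraries, and they are printed because they show what stays open in the desert at both passages. The table did not hold the promoter of Sox9. The sequences are those of RefSeq in GRCm38.p6, both on the minus strand, at chr11:113201789-113202088 for 2610035D17Rik and chr11:113173034-113173333 for LOC115487747, from 250 bases before the start to 50 after it. Capitals mark matches to the motifs searched.

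2610035D17Rik promoter: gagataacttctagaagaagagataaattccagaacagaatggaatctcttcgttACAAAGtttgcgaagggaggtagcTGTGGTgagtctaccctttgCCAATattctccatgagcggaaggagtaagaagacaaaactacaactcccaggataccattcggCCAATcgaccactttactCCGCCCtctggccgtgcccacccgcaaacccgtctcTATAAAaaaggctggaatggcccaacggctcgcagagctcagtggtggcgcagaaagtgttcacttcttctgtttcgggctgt
LOC115487747 promoter: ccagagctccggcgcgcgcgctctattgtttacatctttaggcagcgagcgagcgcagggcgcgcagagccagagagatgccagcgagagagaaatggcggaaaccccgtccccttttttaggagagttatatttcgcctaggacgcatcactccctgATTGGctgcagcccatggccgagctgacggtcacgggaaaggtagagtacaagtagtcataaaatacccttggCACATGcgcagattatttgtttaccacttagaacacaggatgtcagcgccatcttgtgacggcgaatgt

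The peaks covered 256, 211, 177 and 165 of the 300 bases of the first promoter and 209, 197, 196 and 194 of the second. Searched on both strands were the AP-1 motif TGANTCA, the SOX motifs ACAAAG and ACAATG, the RUNX motif TGTGGT, the CRE motif TGACGTCA, the CCAAT box CCAAT, the GC box GGGCGG, the TATA box TATAAA and the E-box CANNTG. The 2610035D17Rik promoter held ACAAAG once, where 28.6% of 32851 RefSeq promoters hold 1 of the SOX motifs. It also held TGTGGT (16.8% of promoters), CCAAT at 2 places (37.4%), the GC box (35.7%) and TATAAA (13.6%). The LOC115487747 promoter held a CCAAT box on the other strand and an E-box, CACATG (72.3% of promoters). None of these matches overlapped another. The G and C content was 49.3% and 54.0%, beside a median of 52.7%, and the promoters held 13 and 22 CG dinucleotides, beside a median of 7. A match is a run of letters and not evidence of binding.

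Among the genes of the window 12 of 37 had a peak in all 4 libraries no farther than 1 kb from an end. They were 8 of the 10 protein-coding genes, where the share over all protein-coding genes was 58.2%, and 4 of the 26 lncRNA genes, beside 27.6% of 12727 lncRNA genes. Of these 12, Sox9, Slc39a11, Sstr2, Cog1, Fam104a, D11Wsu47e, Cdc42ep4 and Sdk2 code for proteins, and 2610035D17Rik, LOC115487747, Gm39467 and 1700092K14Rik are lncRNA genes. P0-only peaks marked 5 lncRNA genes, beside 6.57% of all lncRNA genes, namely BC006965, 4732490B19Rik, Gm51929, Gm51930 and 1700001J04Rik. No gene of the window had peaks in P8 libraries alone. Over the genome both P8 libraries alone had peaks at 0.10% of protein-coding and 0.322% of lncRNA genes, and 1 P8 library alone at 0.498% and 0.849%. No library had a peak at 15 genes of the window. They were 2 of the 10 protein-coding genes, 12 of the 26 lncRNA genes and a pseudogene, beside 30.9% of all protein-coding and 53.35% of all lncRNA genes.

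The genes that SOX9 works with and acts on were mostly open at both passages. Of 22 partners and targets 17 had such peaks near an end in all 4 libraries, beside 58.2% of all protein-coding genes. Among the 17 were Sox6, Col2a1, Col9a1, Col11a2, Acan, Hapln1, Comp and Matn3. At Col2a1, the main collagen of cartilage, the highest fold enrichment there was 3.63 and 3.58 at P0 against 4.09 and 3.69 at P8. At Acan, the large proteoglycan of cartilage, it was 4.51 and 5.78 at P0 against 4.59 and 3.59 at P8. On this ratio to the local background the passages overlapped at Acan, and at Col2a1 both P8 libraries lay slightly above both P0 libraries. Tags and local background at these genes are not given here. A difference in both, like that at the start of Sox9, would therefore not be seen. The ubiquitin ligase gene Wwp2 had 8.80 and 9.63 at P0 and 7.21 and 5.64 at P8.

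P0-only peaks were found at 3 of the 22, beside 3.98% of protein-coding genes. These were the matrilin gene Matn1, with 4.78 and 5.65, the proteoglycan gene Snorc, with 2.77 and 3.25, and the SOX9 relative Sox10, with 5.80 and 3.79. Sox5 and Col9a2 had peaks in both P0 libraries and in 1 P8 library. Peaks in libraries of both passages but not all 4 were found at 4.1% of protein-coding genes. None of the 22 had peaks at P8 alone, where the shares of protein-coding genes were 0.10% for both P8 libraries and 0.498% for 1.

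Windows of 1.5 Mb on each side of the partners showed the same order of the passages. Around Sox5 the libraries held 367, 308, 171 and 203 peaks, a ratio of P0 to P8 of 1.81, and around Sox6 309, 242, 177 and 199, a ratio of 1.47. The Sox9 window lay between them at 1.71. P0-only sites made up 22.4% of 428 sites around Sox5 and 18.8% of 356 around Sox6. P8-only sites numbered 10 (2.34%) and 7 (1.97%), against the 1 site around Sox9. Differences between the windows were not tested.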

How the data were processed

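Per the labels, chromatin of mouse chondrocytes was profiled at P0 and P8, with 2 libraries each. The authors mapped the read pairs with Bowtie2 and ran MACS2 with its default settings on each library. The submitters' processing notes name mm10, which is GRCm38. Each deposited peak has a pileup at its summit, a signal counted in tags with no correction for depth. The authors also deposited the fold enrichment of each peak, a ratio to its local background, and its significance as −log10 p-value and −log10 q-value. Another deposited table, the authors' DiffBind comparison with fold changes and FDR per site, was not used, and read totals are not analysed here. Annotation columns of the authors were not used.

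The prefix of a peak name gave its library, and 0 columns of values per library were left unused. Overlapping peaks (at least 1 bp) of the 4 libraries were merged into sites, and the highest fold enrichment of a library in a site was its value. Local background was computed as (pileup + 1) / fold enrichment - 1, and depth as the lowest background of a library, for tags extended to 73 bp. For matched depth, each p-value was recomputed from a Poisson distribution at the background of the shallowest library, and peaks with a −log10 p of at least 3.33 were kept; peak lengths were left as they were.

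Sites with a peak in all 4 libraries were compared with limma 3.58.1 (R 4.3.3, trend, log2 of the fold enrichment, centred per library, Benjamini-Hochberg adjustment over 55890 sites, threshold 0.05). Exact two-sided permutation tests were run on values per library. Alternatives were another window, cut-off, overlap, centring, measure, filter and trend, and leaving out each library. The scripts were tested on simulated data. Gene positions came from the RefSeq table of GRCm38.p6, in which all listed symbols were found. Some of the listed markers are not reported here. Site sequences and the Sox9 promoter were not analysed here, so motifs were searched in promoters only.

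The sites named were those within 5 kb of Sox9, the 8 highest shared sites, up to 10 sites past the threshold, the 5 highest of each passage-specific pattern, the 3 widest, the farthest shared site on each side and the 3 largest groups. The window, the gene lists and these rules were chosen with earlier results of these data known. The scripts ran in Python 3.11.15 with pandas 2.3.3, numpy 2.4.6, matplotlib 3.10.9 and scipy 1.17.1.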

Additional observations from a re-analysis of the deposited data

How the results depend on the processing

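The ratios of P0 to P8 in peaks, peaks per 10000 and bases covered stayed above 1 under every alternative run. Leaving out each library in turn gave 1.54 to 1.92, 1.16 to 1.30 and 1.83 to 2.35 for them. The share of P0-only sites (a peak in each P0 library and none at P8) rose to 31.5% at a −log10 q of at least 5. With a reciprocal overlap of 50% that share was 16.5%, the share with peaks in all 4 libraries 14.9% and the share with both P8 libraries alone 2.29%, which was 2.04% for peaks above the median −log10 p of all peaks. Leave-one-out ranges were 26.7 to 46.3% for every P0 library alone, 32.8 to 35.6% for every library and 0.338 to 5.61% for every P8 library alone, and fewer libraries have to agree there by construction.

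Of the 11 window sites called by limma, 5 were also called without centring, where 11 were lower, 1 was higher and the median was -0.20. Centred summit pileup called 15 lower and 9 higher (8.90% and 13.8% of all sites). Pileup over the library background, not centred and added after the data were seen, called 24 lower and 4 higher, with a median of -0.20 (21.2% and 4.79% of all sites, median -0.25). Leaving out each library gave 0 to 5 lower and 0 to 7 higher (limma, with the lone library of a passage assumed to vary like the others), and the lowest numbers came without P0 library B or A. The site 0.4 kb upstream of Sox9 went from a positive difference to -0.53 on pileup over the library background, and the site past the 3′ end to -0.97 there and -0.71 on centred pileup. Of 275 values for 25 named sites under alternatives, 228 kept their side of the threshold, and a change of sign was counted only where 1 of the values was called. Joining sites within 25 kb left 25 groups of at least 2, and the motif matches fell from 8 to 5 in the 100 bases before the start. The cause of these changes was not tested. No paired analysis was possible because the peak names carry no replicate number of the labels.

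Depth limits what is seen here, since no value is given where no peak was called and both P8 libraries were the shallower ones.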
